A study of Saccharomyces cerevisiae with 20 samples.

Results

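Yapsins are aspartyl proteases that a glycosylphosphatidylinositol (GPI) anchor holds at the plasma membrane and in the cell wall of *Saccharomyces cerevisiae*, where they cleave proteins after basic residues. The transcript levels of the 5 yapsin genes *MKC7* (YDR144C), *YPS1* (YLR120C), *YPS3* (YLR121C), *YPS6* (YIR039C) and *YPS7* (YDR349C) were examined together with *SAN1* (YDR143C), the chromosomal neighbour of *MKC7*, so that 6 of 6575 annotated open reading frames (ORFs) make up the set. All 6 passed the filter on low counts, as did 5772 ORFs in all. *MKC7* and *SAN1* were chosen by measured values: the level of *MKC7* stood out in earlier results of these data in the *SAN1* and *TOS8* strains, and *SAN1* is its neighbour and is carried on a plasmid in 1 of the strains. Their levels are therefore given as a description with no test, whereas *YPS1*, *YPS3*, *YPS6* and *YPS7* were taken by family name and were tested across all ORFs.

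The libraries came from 5 strains with 4 samples each, 20 in all. Every strain was F45, a *MATa ho* segregant with an *SPS2*:EGFP reporter that forms fluffy (structured) colonies, carrying a low-copy centromeric plasmid with 1 extra gene under its own promoter: *SAN1*, which encodes a nuclear ubiquitin ligase for misfolded proteins; *TOS8*, a homeodomain protein; *SFL1*, a repressor of flocculation genes; *HEK2*, an RNA-binding protein; or *ROF1* (YHR177W), a DNA-binding protein. All strains also share an unmapped serine auxotrophy. The paper reports that each added gene made F45 colonies less structured. The reduction was very strong with *SFL1* and *HEK2*, intermediate with *SAN1* and *ROF1*, and weak with *TOS8*. Colonies were harvested after 4 days on rich medium with 2% glucose and G418, which selects for the plasmid. Several colonies were pooled per sample. No strain without an added gene was analysed here, so each strain is set against the others. Nothing in the labels says that the 4 samples of a strain came from separate transformants, so the p-values measure the spread between these samples.

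Libraries held between 6027147 and 35027485 counts (median 16474114.5). Levels are given as normalised CPM, counts scaled to the ORF total of a library, and as CPM per kilobase of ORF (RPKM) where genes are compared with each other. *HO* had between 0 and 9 counts in every library. The MATa-specific *STE2*, the α-factor receptor, averaged between 140 and 261 CPM over the strains, and the MATα-specific *STE3*, the a-factor receptor, between 18.1 and 28.9 CPM. The α-factor gene *MFALPHA1* averaged between 2.29 and 4.54 CPM. *STE2* was lower in the *TOS8* strain than in each of the other 4. *STE3* was higher there than in the *SFL1* and *HEK2* strains (log2 differences of 0.34 and 0.43). It averaged 24.6 CPM in the *TOS8* strain, below 28.9 CPM in the *SAN1* strain and 28.4 CPM in the *ROF1* strain. Of 4 MATa markers, 1 was called higher and 1 lower in the *TOS8* strain than in the *SFL1* strain. The same counts held against the *HEK2* strain. The MATa marker *MFA1* averaged 42.9 CPM in the *TOS8* strain, 29.5 CPM in the *SFL1* strain and 29.8 CPM in the *HEK2* strain. Over the 10 pairs of strains, 24 of 40 tests of 4 MATa markers and 11 of 20 tests of 2 MATα markers passed an edgeR adjusted p of 0.01, as did 21.2% of such tests over all ORFs. Any part of these marker differences in the yapsin values was not tested. In pooled colonies, fewer cells that transcribe a gene and less RNA per cell cannot be told apart.

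Yapsins share substrates and are known for their part in cell wall integrity: strains without them grow poorly under cell wall stress, and the transcription of *YPS1* and other wall genes responds to the Pkc1 and Slt2 kinase pathway. *YPS1* and *MKC7* are the closest pair of the family and stem from the whole-genome duplication. In the R64 reference genome all 5 yapsin genes lie on the minus strand: *MKC7* at chrIV:744311-746101, *YPS7* at chrIV:1172386-1174176, *YPS1* at chrXII:386511-388220, *YPS3* at chrXII:388744-390270, next to *YPS1* with 523 bases between them, and *YPS6* at chrIX:430498-432111. *SAN1* lies at chrIV:742042-743874, downstream of *MKC7* on the same strand, with 436 bases between the 2 genes. None of the 6 ORFs overlaps another annotated feature of the same strand.

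Whether reads could be assigned to 1 yapsin gene was checked on the reference sequence. *MKC7* and *YPS1* had the highest nucleotide identity of the 10 pairs, 57.6% of aligned columns, and the other 9 pairs lay between 47.1% and 52.5%. No stretch of 51 bases, the length of a read, was shared by any 2 of the 5 coding strands with up to 1 mismatch. The longest exact match between *MKC7* and *YPS1* was 14 bases, shown here in capitals with 20 bases on either side (positions 695 to 748 of *MKC7* and 734 to 787 of *YPS1*, counted from the A of the start codon), because it is the longest run that the 2 genes have in common.
MKC7: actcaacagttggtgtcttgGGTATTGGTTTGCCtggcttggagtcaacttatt
YPS1: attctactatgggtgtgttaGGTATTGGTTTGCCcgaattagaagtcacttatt
All 1741 stretches of 51 bases in *MKC7* and all 1783 in *SAN1* occurred once in the genome, as did all of those in *YPS1*, *YPS3* and *YPS7*. *YPS6* was the exception: 169 of its 1564 stretches (10.8%) also occurred in *YPS5* (YGL259W, chrVII:8470-8967), a short ORF of 498 bases that was not among the 5 genes. Without gaps, 346 of the first 350 bases of *YPS5* and *YPS6* were identical (98.9%). Their first 60 bases are shown because they differ at 1 position, in capitals.
YPS5: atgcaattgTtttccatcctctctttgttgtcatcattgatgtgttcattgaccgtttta
YPS6: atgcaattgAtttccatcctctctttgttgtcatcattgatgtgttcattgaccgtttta
Counts of *YPS5* and of the start of *YPS6* are thus uncertain, since reads that align equally well to both were not removed by mapping quality.

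*MKC7*, a protease first found as a multicopy suppressor of a *kex2* defect, was highest in the *SAN1* strain and lowest in the *TOS8* strain. It had 174, 176, 214 and 200 CPM in the *SAN1* strain and 15.1, 21.5, 18.4 and 27.7 CPM in the *TOS8* strain. The values were 56.6, 60.1, 60.9 and 65.7 CPM with *SFL1*, 64.0, 69.1, 71.4 and 64.9 CPM with *HEK2* and 54.1, 47.9, 55.4 and 67.1 CPM with *ROF1* on the plasmid. All 4 *SAN1* libraries lay above the other 16, as was so for 0.26% of the tested ORFs, and all 4 *TOS8* libraries lay below the other 16, as was so for 9.96%. The *SFL1*, *HEK2* and *ROF1* strains overlapped with each other. On the log2 scale the *SAN1* strain exceeded the *ROF1* strain by 1.77 (SE 0.12), the *SFL1* strain by 1.65 (SE 0.12) and the *HEK2* strain by 1.5 (SE 0.12). Against the *TOS8* strain the difference was 3.17 (SE 0.13), or 8.98-fold. The *TOS8* strain lay below the *SFL1* strain by a log2 difference of -1.52 (SE 0.12), below the *HEK2* strain by -1.66 (SE 0.13) and below the *ROF1* strain by -1.39 (SE 0.13). These values come from the comparisons for which *MKC7* was chosen and support nothing further. The spread between replicates was largest where the gene was lowest, with a coefficient of variation of 26.1% in the *TOS8* strain and between 5.2% and 14.2% elsewhere.

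*SAN1* itself, which is on the plasmid of 1 strain, had 98.7, 93.8, 104 and 96.8 CPM in the *SAN1* strain. It had 38.3, 33.8, 38.2 and 39.2 CPM in the *TOS8* strain, 42.4, 39.9, 41.6 and 41.4 CPM in the *SFL1* strain, 46.2, 45.9, 43.6 and 44.1 CPM in *HEK2* libraries and 33.1, 38.5, 38.6 and 41.3 CPM in *ROF1* libraries. All 4 *SAN1* libraries exceeded the other 16, as was so for 0.26% of the tested ORFs. Its log2 difference was 1.4 (SE 0.060) against the *TOS8* strain, 1.38 (SE 0.061) against the *ROF1* strain, 1.25 (SE 0.060) against the *SFL1* strain and 1.12 (SE 0.060) against the *HEK2* strain, so the difference of *MKC7* in each of these comparisons was the larger of the 2. Outside the *SAN1* strain, *SAN1* averaged between 37.4 and 44.9 CPM, with the lowest mean in the *TOS8* strain. Its *TOS8* libraries lay below those of the *SFL1* strain (log2 difference -0.15, SE 0.060) and the *HEK2* strain (-0.27, SE 0.060) and overlapped with those of the *ROF1* strain (-0.02, SE 0.062). These pairs called 43.3%, 47.7% and 31% of ORFs, in the same order. The share of ORFs that lay apart in single pairs is not reported here. The ratio of *MKC7* to *SAN1* counts was 1.94 ± 0.149 in the *SAN1* strain and 0.554 ± 0.143 in the *TOS8* strain, against 1.47 ± 0.104 in the *SFL1* strain, 1.5 ± 0.105 in *HEK2* libraries and 1.48 ± 0.185 in *ROF1* libraries (SD, n = 4 each).

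**Figure D1:**
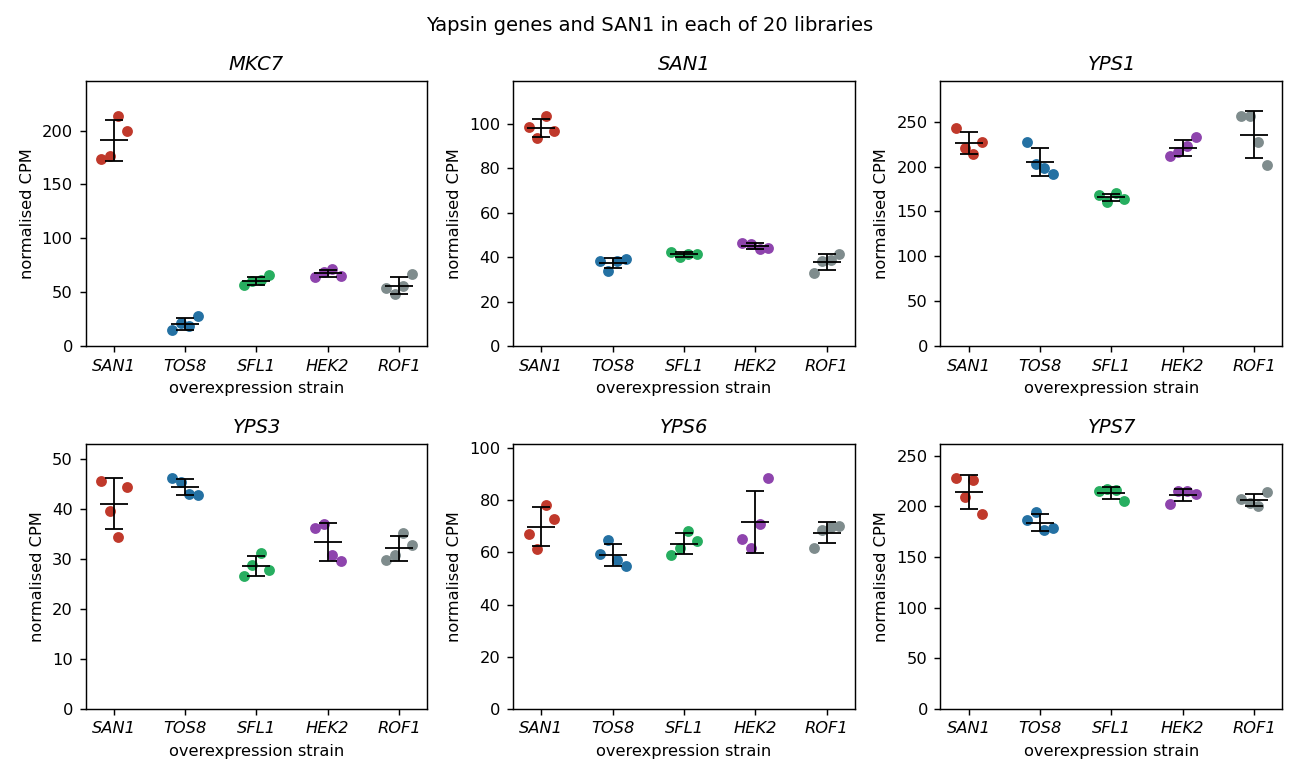
Normalised CPM (vertical axes, from 0) of the 5 yapsin genes and *SAN1* in each of the 20 libraries, by overexpression strain; points are libraries, and black bars are the mean and SD of 4. *MKC7* lies between 174 and 214 CPM in the *SAN1* strain and between 15.1 and 27.7 CPM in the *TOS8* strain, apart from the other strains, whereas *YPS6* overlaps between all strains.

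The gene-level counts do not separate the plasmid from the chromosome, and the ends of the plasmid insert are not given in the sources used here, so transcripts from either copy cannot be told apart. The other features of the locus were therefore compared. *PEX7* (YDR142C, chrIV:740473-741600), a receptor for peroxisomal import that lies 441 bases beyond the 3′ end of *SAN1*, averaged 41.0 ± 0.164 CPM in the *SAN1* strain and between 37.4 and 39.5 CPM in the other strains (log2 difference 0.09 ± 0.050 SE, edgeR adjusted p = 0.289). *TAF12* (YDR145W), a subunit of TFIID on the other side of *MKC7*, averaged 51.4 ± 3.02 CPM in the *SAN1* strain and between 47.9 and 56.9 CPM elsewhere. The *SAN1* libraries of *PEX7* (40.9 to 41.2 CPM) lay above those of the *TOS8*, *SFL1* and *HEK2* strains and within the range of the *ROF1* libraries (32.4 to 43.5 CPM). The pairs of the *SAN1* strain with the *TOS8*, *SFL1* and *HEK2* strains called 30.4%, 9.1% and 11.9% of ORFs. The *SAN1* libraries of *TAF12* overlapped with every other strain.

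Transcripts annotated on the opposite strand of the 2 genes were higher in the *SAN1* strain, here without a test. The feature 4F-350, at chrIV:742097-742565 and wholly inside *SAN1*, averaged 11.8 ± 0.853 CPM in the *SAN1* strain and between 0.647 and 0.960 CPM in the other strains (14.5-fold over their 16 libraries). The feature 4F-352, at chrIV:743419-743980, covers the 5′ end of *SAN1* with 456 of its 562 bases. It averaged 7.34 ± 1.77 CPM in the *SAN1* strain and between 0.536 and 1.39 CPM elsewhere (8.06-fold). The feature 4F-354, at chrIV:744252-744508, covers the 3′ end of *MKC7* and averaged 3.73 ± 0.83 CPM in the *SAN1* strain, against means between 0.416 and 1.04 CPM (4.8-fold). None of these 3 features overlapped between the *SAN1* libraries and the other 16. The share of features that did so was computed for tested ORFs only (0.26%), and not for features of this kind. In the other 16 libraries the 3 features had between 2 and 42 counts. Counts of 4F-350 and 4F-352 together were 19.4 ± 1.35% of the sense counts of *SAN1* in the *SAN1* strain, against 4.16 ± 1.23% in the *TOS8* strain, 4.29 ± 0.610% in the *SFL1* strain, 5.22 ± 1.34% in *HEK2* libraries and 3.25 ± 0.440% in *ROF1* libraries (SD, n = 4 each). Antisense counts of 4F-354 were 1.99 ± 0.531% of *MKC7* counts in the *SAN1* strain, which was within the range of the strain means (0.618% to 5.14%). The last 198 bases of the *MKC7* coding sequence (chrIV:744311-744508, minus strand), with the stop codon in capitals, are the stretch that 4F-354 lies opposite to and are shown for that reason.
MKC7 3′ end: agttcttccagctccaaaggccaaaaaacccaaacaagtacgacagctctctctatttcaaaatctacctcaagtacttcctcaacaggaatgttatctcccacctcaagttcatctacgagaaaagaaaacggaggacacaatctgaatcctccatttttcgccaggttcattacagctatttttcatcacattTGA
Antisense features at other plasmid genes, picked after their values were seen, also stood higher in their own strain. The feature 8R-217, opposite *ROF1*, averaged 3.72 ± 0.952 CPM in the *ROF1* strain and 0.191 ± 0.125 CPM over the other 16 libraries. At *SFL1*, YOR139C averaged 0.644 ± 0.0779 CPM in the *SFL1* strain and 0.221 ± 0.158 CPM over the other 16. It had 9 to 25 counts in the *SFL1* strain and 0 to 7 elsewhere, and the libraries overlapped (lowest 0.572 CPM, highest elsewhere 0.655 CPM). Opposite *TOS8*, 7R-135 was 1.75-fold higher in its own strain. At *HEK2*, 2R-56 lies opposite the gene with 60 of its 375 bases and was 1.91-fold higher, on 5 to 58 counts. Its libraries overlapped with the other 16 (lowest 0.838 CPM, highest elsewhere 0.959 CPM). The feature 2R-58, wholly opposite *HEK2*, was 2.35-fold higher. ST5221, opposite *ROF1*, had no counts. Features beside these genes without overlap, picked likewise, moved both ways. ST1141 lies upstream of *TOS8* on the same strand. It averaged 2.77 ± 0.388 CPM in the *TOS8* strain and 0.329 ± 0.184 CPM over the other 16 libraries. SUT2433.1, beside *SFL1*, was 5.61-fold higher in its own strain, on 3 to 9 counts. Beside *ROF1*, 8F-204 was 1.38-fold higher. Upstream of *TOS8*, 7R-133 and ST4827 stood at 0.724-fold and 0.812-fold.

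**Figure D2:**
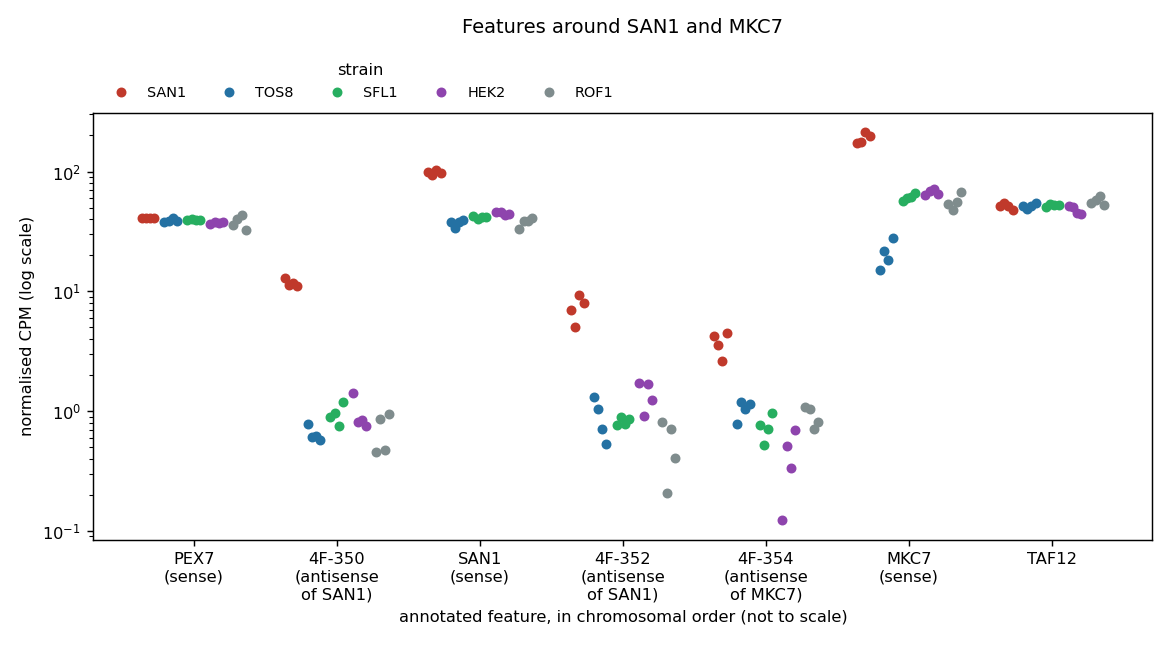
Normalised CPM (vertical axis, log scale) of 7 annotated features around *SAN1* and *MKC7* in chromosomal order, with distances not to scale; each point is a library, coloured by strain. *SAN1*, *MKC7* and the 3 antisense features 4F-350, 4F-352 and 4F-354 lie apart in the *SAN1* strain, and *PEX7* and *TAF12* do not.

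The other plasmid genes were asked the same question as *SAN1*: did the nearest tested ORF on either side differ in the strain that carries the plasmid? Of 9 neighbours other than *MKC7*, 1 was called in its own strain against the other 4 at an adjusted p below 0.01, a direction-free rule that calls 20.2% of the tested ORFs over the 5 such comparisons (3.29% for *SAN1*, 48.3% for *TOS8*, 16.2% for *SFL1*, 24.5% for *HEK2* and 8.85% for *ROF1*). It was *VPS45* (YGL095C), which encodes a protein of endosomal vesicle fusion and lies 2712 bases downstream of *TOS8* on the opposite strand. *VPS45* averaged 53.4 ± 1.74 CPM in the *TOS8* strain and between 62.0 and 71.9 CPM elsewhere, a log2 difference of -0.27 (SE 0.043, edgeR adjusted p = 1.61e-05). The remaining 8 had log2 differences between -0.08 (*STB5*, downstream of *ROF1*) and 0.09 (*PEX7*), and their adjusted p-values lay between 0.188 and 0.854. The 9 neighbours lay between 369 (*SHE1*) and 2712 bases (*VPS45*) from their plasmid gene, on either strand, and *MKC7* lay 436 bases away. Unlike *MKC7*, they were not chosen for their values. *MKC7*, by description, was 2.02 (SE 0.084) above the mean of the other 4 strains, and *SAN1* was 1.29 (SE 0.044) above it. The other plasmid genes were above it by 2.19 (*SFL1*), 2.17 (*TOS8*), 1.61 (*HEK2*) and 1.42 (*ROF1*).

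**Figure D3:**
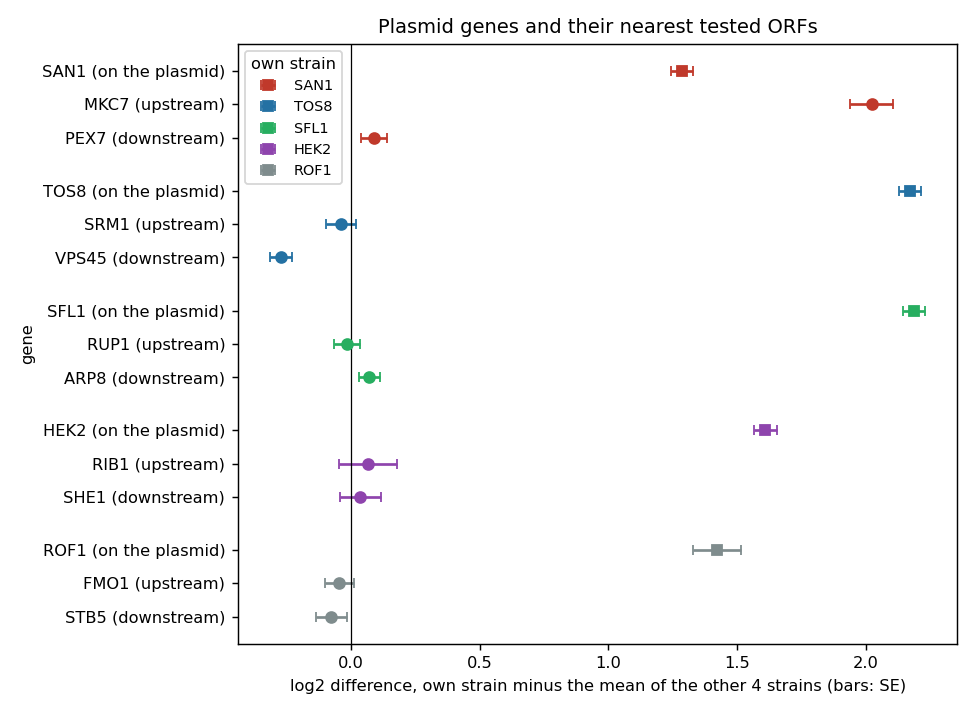
Log2 difference (horizontal axis) between the strain that carries a plasmid and the mean of the other 4 strains, for the 5 plasmid genes (squares) and their 10 nearest tested ORFs (circles); bars are the SE. *MKC7*, which was chosen for its value, lies beside the plasmid genes at 2.02, and the other 9 neighbours lie between -0.27 and 0.09.

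The 4 yapsin genes taken by family name were compared between all 10 pairs of strains. Of these 40 tests, 11 passed an adjusted p of 0.01 (edgeR, adjusted over all tested ORFs), or 4 for *YPS1*, 4 for *YPS3*, 0 for *YPS6* and 3 for *YPS7*. Over all ORFs, 21.2% of such tests passed. Between the *HEK2* and *ROF1* strains, where 18.3% of ORFs were called, none of the 4 genes was. A test for any difference among the 5 strains, which 58.5% of ORFs passed, was passed by *YPS1* (edgeR adjusted p = 2.47e-05), *YPS3* (8.24e-06) and *YPS7* (0.00690), and not by *YPS6* (0.0707). The largest difference of these 4 genes was 0.63 on the log2 scale. In the 3 pairs without the *SAN1* and *TOS8* strains, *MKC7* differed by -0.14 (*SFL1* against *HEK2*), 0.13 (*SFL1* against *ROF1*) and 0.27 (*HEK2* against *ROF1*).

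*YPS1*, the best studied yapsin and a cell wall stress gene, was lower in the *SFL1* strain than in each of the other 4. It had 243, 220, 215 and 227 CPM in the *SAN1* strain, 227, 203, 198 and 191 CPM in the *TOS8* strain, 168, 161, 170 and 163 CPM in the *SFL1* strain, 212, 216, 223 and 233 CPM in *HEK2* libraries and 256, 257, 228 and 202 CPM in *ROF1* libraries. The 4 *SFL1* libraries lay below the other 16, as 1.77% of the ORFs did, and the remaining strains overlapped. The *SAN1* strain exceeded the *SFL1* strain by a log2 difference of 0.45 (SE 0.071, edgeR adjusted p = 0.000158), in a comparison that called 9.1% of ORFs. The *TOS8* strain exceeded it by 0.31 (SE 0.070, adjusted p = 0.00103, 43.3% called). The *SFL1* strain lay below the *HEK2* strain by a log2 difference of -0.42 (SE 0.070, edgeR adjusted p = 0.000667, 4.31% called) and below the *ROF1* strain by -0.51 (SE 0.071, edgeR adjusted p = 2.65e-05, 15.3% called). The other 6 pairs did not pass, with log2 differences between -0.21 and 0.15. Among them the *TOS8* strain against the *ROF1* strain (-0.21, edgeR adjusted p = 0.0222) passed when *TOS8* replicate 1 (adjusted p = 0.00922) or *ROF1* replicate 4 (0.00271) was left out.

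*YPS3*, the tandem neighbour of *YPS1*, was higher in the *TOS8* strain than in the *SFL1*, *HEK2* and *ROF1* strains. It had 45.6, 39.6, 34.4 and 44.4 CPM in the *SAN1* strain, 46.1, 45.4, 43.0 and 42.9 CPM in the *TOS8* strain, 26.6, 28.9, 31.1 and 27.7 CPM in the *SFL1* strain, 36.1, 37.0, 30.9 and 29.5 CPM in *HEK2* libraries and 29.7, 30.7, 35.2 and 32.7 CPM in *ROF1* libraries. The *TOS8* libraries overlapped with the *SAN1* libraries alone, and the share of ORFs that lay apart in single pairs is not reported here. The *TOS8* strain exceeded the *SFL1* strain by a log2 difference of 0.63 (SE 0.084, edgeR adjusted p = 3.78e-06, 43.3% called), the *HEK2* strain by 0.40 (SE 0.083, edgeR adjusted p = 0.000378, 47.7% called) and the *ROF1* strain by 0.47 (SE 0.086, edgeR adjusted p = 0.000215, 31% called). *YPS3* was also higher in the *SAN1* strain than in the *SFL1* strain, by 0.53 (SE 0.086, edgeR adjusted p = 0.000251, 9.1% called). The *SAN1* strain against the *HEK2* strain (log2 difference 0.30, edgeR adjusted p = 0.0158, 11.9% called) passed without *SAN1* replicate 3 (0.00440), and against the *ROF1* strain the difference was 0.37 (edgeR adjusted p = 0.0261, 0.295% called). By strain means, *YPS3* was highest of the 5 strains in the *TOS8* strain, and *MKC7*, chosen for its level there, was lowest. Between the *SAN1* and *TOS8* strains *YPS3* did not pass (log2 difference -0.10, edgeR adjusted p = 0.367). In the *SAN1* strain *MKC7* ranked 1 and *YPS3* ranked 2 of 5.

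*YPS7*, the most divergent of the 5 by sequence here, was lower in the *TOS8* strain than in the *SAN1*, *SFL1* and *HEK2* strains, by small amounts. It had 228, 209, 226 and 192 CPM in the *SAN1* strain, 187, 194, 176 and 179 CPM in the *TOS8* strain, 216, 217, 216 and 205 CPM in the *SFL1* strain, 202, 215, 215 and 212 CPM in *HEK2* libraries and 208, 203, 200 and 214 CPM in *ROF1* libraries. The *TOS8* libraries lay below those of the *SFL1*, *HEK2* and *ROF1* strains and overlapped with those of the *SAN1* strain. The share of ORFs that lay apart in such single pairs is not reported here. Differences were 0.22 between the *SAN1* and *TOS8* strains (SE 0.055, edgeR adjusted p = 0.00319, 30.4% called), -0.21 between the *TOS8* and *SFL1* strains (SE 0.055, edgeR adjusted p = 0.00248, 43.3% called) and -0.20 between the *TOS8* and *HEK2* strains (SE 0.055, edgeR adjusted p = 0.00415, 47.7% called). Between the *TOS8* and *ROF1* strains the difference was -0.16 (SE 0.055, edgeR adjusted p = 0.0194, 31% called). These calls rested on single libraries: none of the 3 passed without *TOS8* replicate 3 (edgeR adjusted p of 0.0143, 0.0117 and 0.0179, in the same order), and 1 passed without *TOS8* replicate 4. The *SAN1* against *TOS8* call was also lost without *SAN1* replicate 1 (0.0157) or replicate 3 (0.0148), and the *TOS8* against *HEK2* call without *HEK2* replicate 2 (0.0133) or replicate 3 (0.0119). The other 6 pairs had log2 differences between 0.00 and 0.05.

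*YPS6*, a putative yapsin, did not pass in any pair. It had 67.0, 61.3, 78.4 and 72.9 CPM in the *SAN1* strain, 59.2, 64.7, 57.1 and 54.9 CPM in the *TOS8* strain, 58.9, 61.6, 68.3 and 64.5 CPM in the *SFL1* strain, 65.1, 61.9, 70.8 and 88.4 CPM in *HEK2* libraries and 61.5, 68.4, 69.7 and 70.3 CPM in *ROF1* libraries. All strains overlapped. The largest difference, between the *TOS8* and *HEK2* strains, was -0.28 (95% interval -0.48 to -0.08, edgeR adjusted p = 0.0148), and it passed without *TOS8* replicate 2 (0.00951), *HEK2* replicate 1 (0.00876) or *HEK2* replicate 2 (0.00457). The intervals of the other 9 pairs reached as far as -0.40 and 0.44.

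**Figure D4:**
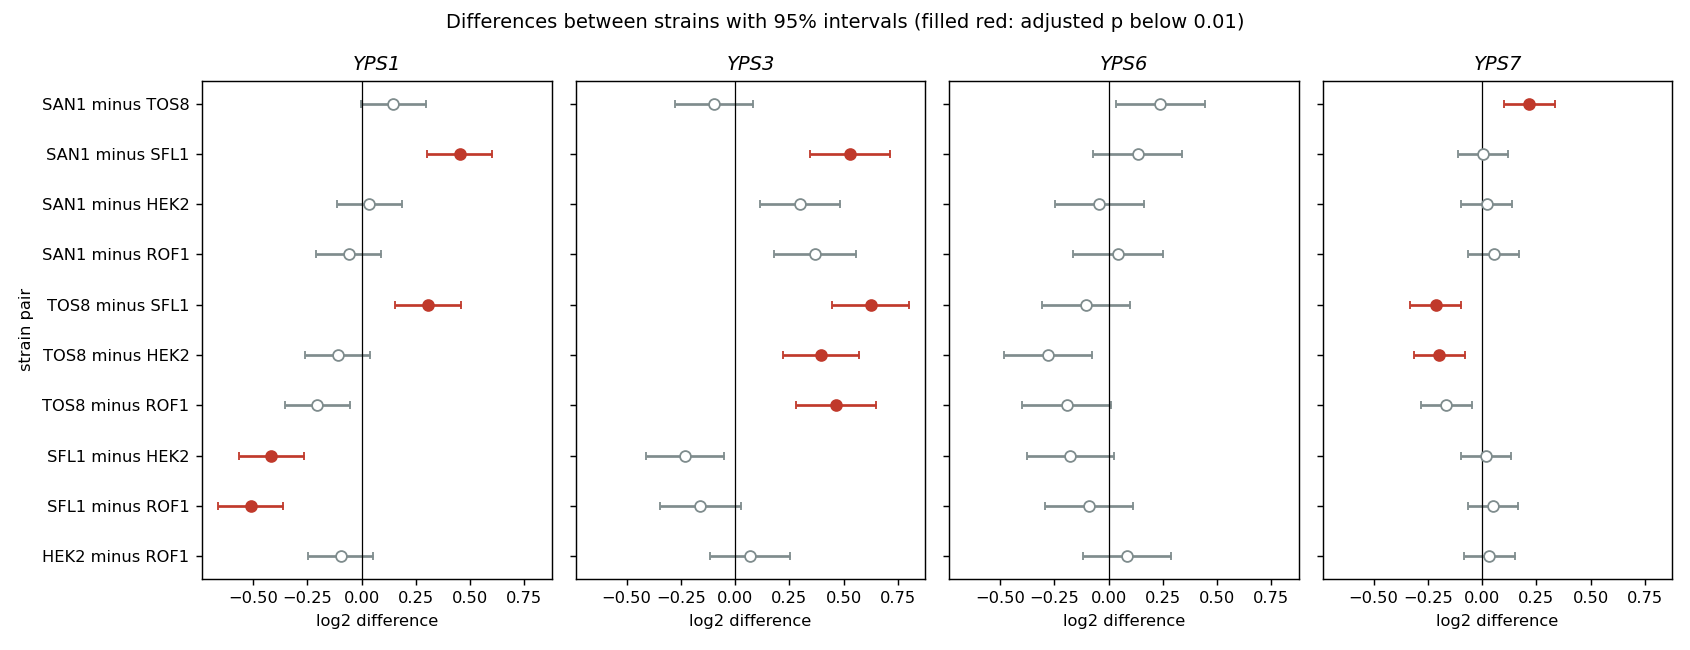
Log2 differences (horizontal axes) of *YPS1*, *YPS3*, *YPS6* and *YPS7* between each of the 10 pairs of strains, with 95% intervals; filled red points passed an adjusted p of 0.01. Of 40 differences, 11 passed, with the *SFL1* strain low for *YPS1* and the *TOS8* strain high for *YPS3*.

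Compared per length, *MKC7* took a different place in the family in each of the 2 strains where it stood apart. It was chosen for its levels in these 2 strains, so its place and share there restate that choice. In the *SAN1* strain it averaged 107 ± 10.8 RPKM, below *YPS1* (132 ± 7.27) and *YPS7* (119 ± 9.32) and above *YPS6* (43.3 ± 4.58) and *YPS3* (26.9 ± 3.35). In the *TOS8* strain it averaged 11.5 ± 3.01 RPKM and was the lowest of the 5 genes, next to *YPS3* with 29.0 ± 1.08 RPKM. In the *SFL1*, *HEK2* and *ROF1* strains it averaged 34.0 ± 2.08, 37.6 ± 1.96 and 31.3 ± 4.46 RPKM, between *YPS3* and *YPS6*. *YPS1* and *YPS7* had the 2 highest means of the 5 genes in every strain, between 96.8 and 138 RPKM. *MKC7* made up 24.8 ± 2.17% of the summed yapsin RPKM in the *SAN1* strain and 3.87 ± 1.11% in the *TOS8* strain, against 11.0 ± 0.707% in the *SFL1* strain, 10.7 ± 0.598% in *HEK2* libraries and 9.04 ± 1.44% in *ROF1* libraries. The sum itself was 429 ± 15.3 RPKM in the *SAN1* strain, 300 ± 12.8 RPKM in the *TOS8* strain, 308 ± 5.87 RPKM in the *SFL1* strain, 351 ± 11.8 RPKM in *HEK2* libraries and 347 ± 7.11 RPKM in *ROF1* libraries (SD, n = 4 each). The sum was therefore highest in the *SAN1* strain, and the *TOS8* and *SFL1* strains, whose libraries overlapped, were lowest. In the *TOS8* strain *MKC7*, *YPS6* and *YPS7* had their lowest means of the 5 strains, *YPS1* ranked 4 of 5 and *YPS3* was highest. In the *SFL1* strain *YPS1* and *YPS3* had their lowest means. The sum includes *MKC7*, which was chosen for its levels in the *SAN1* and *TOS8* strains.

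**Figure D5:**
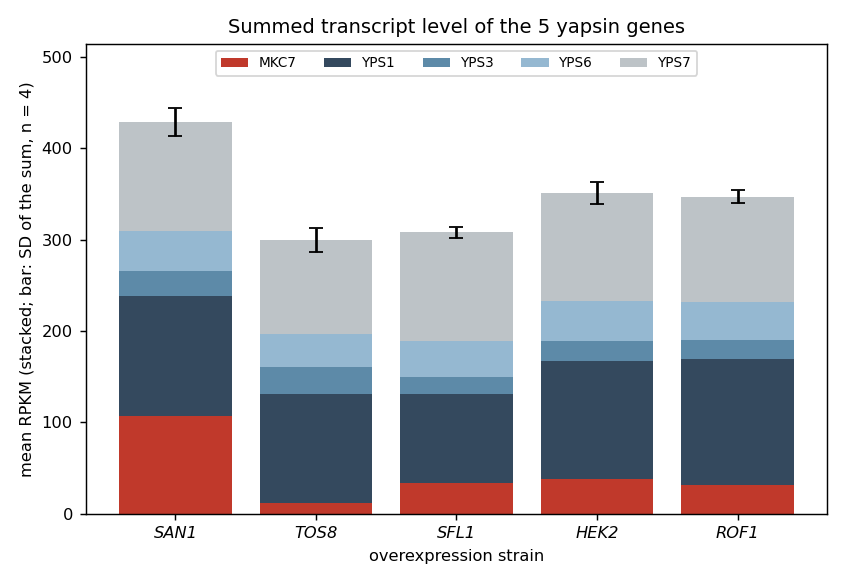
Mean RPKM (vertical axis, from 0) of the 5 yapsin genes, stacked for each strain; the bar on top is the SD of the sum over 4 libraries. *MKC7* (red, at the base) takes 24.8% of the sum in the *SAN1* strain and 3.87% in the *TOS8* strain.

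Genes that work with or near the yapsins were counted from lists chosen with earlier results of these data known. Among the other aspartyl proteases, *YPS5* was lower in the *TOS8* strain than in each of the other 4: it averaged 7.82 ± 0.850 CPM in the *TOS8* strain, against 10.3 ± 1.45 CPM in the *SAN1* strain, 11.9 ± 0.888 CPM in the *SFL1* strain, 12.5 ± 2.11 CPM in *HEK2* libraries and 12.0 ± 0.673 CPM in *ROF1* libraries. Its log2 differences were 0.42 between the *SAN1* and *TOS8* strains (edgeR adjusted p = 0.00847) and -0.61, -0.71 and -0.63 between the *TOS8* strain and the *SFL1*, *HEK2* and *ROF1* strains (edgeR adjusted p of 0.000159, 1.92e-05 and 0.000287). Given the shared sequence, *YPS5* reads cannot all be told apart from those of *YPS6*, which did not pass in these pairs. *BAR1*, the protease that degrades α-factor and a MATa marker, averaged 26.8 ± 4.42 CPM in the *SAN1* strain and 27.2 ± 4.06 CPM in the *ROF1* strain, and was low in 3 strains, with 11.6 ± 2.18 CPM in the *TOS8* strain, 12.3 ± 0.818 CPM in the *SFL1* strain and 15.02 ± 1.68 CPM in the *HEK2* strain. It was called in the 6 pairs between these sets of strains and in none within them: it was higher in the *SAN1* strain than in the *TOS8* strain by 1.16 (edgeR adjusted p = 6.57e-07) and lower in the *TOS8* strain than in the *ROF1* strain by a log2 difference of -1.20 (edgeR adjusted p = 3.69e-07). *PEP4*, the vacuolar proteinase A, was lower in the *TOS8* strain than in the *HEK2* and *ROF1* strains (-0.46 and -0.30). Over the 10 pairs, 13 of 40 tests of this list passed (32.5%, against 21.2% over all ORFs). Its median difference was 0.33 between the *SAN1* and *TOS8* strains and lay between -0.46 and -0.07 in the other 3 pairs with the *TOS8* strain, where the median of all ORFs lay between -0.01 and 0.01.

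Of 5 proteases that process secreted and vacuolar proteins, *KEX2* and *PRC1* were lower in the *TOS8* strain than in each other strain. *KEX2*, the Golgi protease whose loss *MKC7* suppresses, averaged 51.9 ± 2.70 CPM in the *TOS8* strain and between 63.4 and 69.4 CPM elsewhere, and was called in all 4 pairs with that strain. *PRC1* (carboxypeptidase Y) had log2 differences of 0.48 between the *SAN1* and *TOS8* strains and -0.66 between the *TOS8* and *HEK2* strains. *PRB1* (proteinase B) went the other way, being higher in the *TOS8* than in the *SFL1* strain by 0.30. This list passed in 12 of 50 tests (24%, against 21.2% over all ORFs), with a median of 0.13 between the *SAN1* and *TOS8* strains and between -0.32 and -0.24 in the other 3 pairs with *TOS8*. Of the 5 subunits of GPI transamidase, which attaches the anchor that yapsins carry, 4 were lower in the *TOS8* strain than in the *SAN1*, *SFL1* and *ROF1* strains and 3 than in the *HEK2* strain. The largest of these differences belonged to *GAA1* (-0.45 between the *TOS8* and *HEK2* strains, edgeR adjusted p = 5.77e-06), and no subunit was called in a pair without the *TOS8* strain (15 of 50 tests in all, 30%, against 21.2% over all ORFs). The median of the 5 subunits was 0.25 between the *SAN1* and *TOS8* strains and between -0.27 and -0.22 in the other 3. The *TOS8* strain differed in many ORFs, 30.4% to 47.7% in its 4 pairs.

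Of 4 genes whose products have been described as yapsin substrates, *UTR2*, a glucan-chitin crosslinking enzyme, and *GAS1*, a glucan-remodelling enzyme, were lower in the *TOS8* strain than in each other strain. *UTR2* averaged 63.6 ± 12.2 CPM in the *TOS8* strain, against 194 ± 40.3 CPM in the *SAN1* strain, 167 ± 22.8 CPM in the *SFL1* strain, 252 ± 21.1 CPM in *HEK2* libraries and 181 ± 33.9 CPM in *ROF1* libraries. Its log2 difference between the *TOS8* and *HEK2* strains was -1.97 (edgeR adjusted p = 3.05e-09). *GAS1* averaged 1496 ± 64.1 CPM in the *TOS8* strain and between 1942 and 2212 CPM elsewhere. *MSB2*, a signalling mucin of the filamentation pathway that Yps1 sheds, averaged 404 ± 51.3 CPM in the *SAN1* strain and 441 ± 60.2 CPM in the *ROF1* strain, against 302 ± 30.9 CPM in the *TOS8* strain, 275 ± 18.4 CPM in the *SFL1* strain and 279 ± 12.8 CPM in the *HEK2* strain. The *SAN1* strain exceeded the *TOS8* strain in *MSB2* by 0.42 (edgeR adjusted p = 0.00170). In all, 19 of 40 tests of this list passed (47.5%, against 21.2% over all ORFs). Those counted include tests of the α-factor precursor gene *MFALPHA1*, a MATα marker with 18 to 88 counts per library. The list's median was 0.66 between the *SAN1* and *TOS8* strains. It lay between -0.58 and -0.12 in the *TOS8* strain against the *SFL1*, *HEK2* and *ROF1* strains.

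The cell wall integrity pathway, through which *YPS1* is known to be induced, held 21 tested genes. Between the *TOS8* and *SFL1* strains 8 were higher and 4 lower, with *RLM1*, its transcription factor, highest (0.68, edgeR adjusted p = 7.92e-06) and *KDX1*, a kinase-like protein, lowest (-0.69). Between the *TOS8* and *HEK2* strains 7 were higher and 6 lower, between *RLM1* (0.77) and *ROM1*, an exchange factor for Rho1 (-0.61). Against the *ROF1* strain, 3 were higher and 4 lower in the *TOS8* strain, between *PTP2*, a phosphatase (0.56), and *ROM1* (-0.65). Between the *SAN1* and *TOS8* strains 3 were higher and 5 lower, between the sensor *WSC2* (0.41) and *RLM1* (-0.65). *RLM1* averaged 75.0 ± 6.51 CPM in the *TOS8* strain and between 43.6 and 51.9 CPM elsewhere. Members moved in both directions in each of these pairs, the list's median difference lay between -0.07 and 0.03, and that of all ORFs between -0.01 and 0.01. Over all pairs 51 of 210 tests passed (24.3%), close to the 21.2% over all ORFs. The share of ORFs called was 43.3% between the *TOS8* and *SFL1* strains, 47.7% between the *TOS8* and *HEK2* strains, 31% between the *TOS8* and *ROF1* strains and 30.4% between the *SAN1* and *TOS8* strains.

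A list of 13 wall genes grouped as induced through Rlm1 was not checked gene by gene for other routes of induction. Of its genes, 46 of 130 tests passed (35.4%, against 21.2% over all ORFs, with the same shares per pair with the *TOS8* strain as above). Between the *TOS8* and *SFL1* strains 7 were higher and 0 lower, from *CRH1*, a crosslinking enzyme (0.32), to *CWP1*, a mannoprotein (1.49, edgeR adjusted p = 4.93e-08). In the pair of the *TOS8* and *HEK2* strains 6 were higher and 2 lower, from *BGL2*, a glucanase (-0.36), to *PST1*, a wall protein (1.13). In that of the *TOS8* and *ROF1* strains 5 were higher and 3 lower, from *PIR3*, a wall glycoprotein (-0.77), to *PST1* (0.94). Between the *SAN1* and *TOS8* strains 2 were higher and 4 lower, from *CWP1* (-0.91) to *BGL2* (0.35). In the *SFL1* strain, where *YPS1* was low, 0 were higher and 6 lower than in the *ROF1* strain (15.3% of ORFs called), 0 were higher and 2 lower than in the *HEK2* strain (4.31%), and in the pair of the *SAN1* and *SFL1* strains 4 were higher and 0 lower (9.1%). *CWP1* averaged 1580 ± 185 CPM in the *TOS8* strain and 562 ± 11.3 CPM in the *SFL1* strain, the extremes of the 5 strain means. The list's median was 0.32 between the *TOS8* and *SFL1* strains and between -0.02 and 0.15 in the other 3 pairs with the *TOS8* strain.

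Letters known to be bound by pathway factors were looked for on both strands from 250 bases before to 50 after the start codon of each member. The Rlm1 motif CTANNNNTAG was found in none of the 5 yapsin windows and in 5.60% of 5896 windows of the same length. It was found once at *SAN1*, 99 bases before the start codon. The Ste12 motif TGAAACA, held by 7.33% of windows, was found once at *MKC7*, 186 bases before the start codon, and at no other member. The Tec1 motif CATTCC (10.3% of windows) was in no member, and CATTCT (19.4%) was found at 2 places in *YPS7* and 1 in *SAN1*. The Swi4 and Swi6 motif CNCGAAA (14.0% of windows) was found once in *YPS3*. The sites at *MKC7* (chrIV:746269-746298, minus strand, motif reversed) and *SAN1* (chrIV:743954-743983, minus strand) are shown with the motif in capitals, as the matches in the 2 genes of the plasmid locus. They are matches of letters and not measured sites.
MKC7: agttttgaaccTGTTTCAataccttatttc
SAN1: agtgaagctaCTATAGATAGaaattattta

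The ORFs whose log2 CPM followed that of *MKC7* most closely over the 20 libraries were *MTO1* (Pearson r = 0.92), *PMT5* (0.91), *PHO87* (0.90), *MTM1* (0.90) and *RNR1* (0.89). Those with the most negative coefficients were YER079W (-0.93), *RPT2* (-0.93) and *UBC4* (-0.90). *MTO1*, a mitochondrial tRNA modification gene, averaged 115 ± 7.0 CPM in the *SAN1* strain, 69.0 ± 3.87 CPM in the *TOS8* strain and between 87.0 and 101 CPM in the other strains. Over the 16 libraries without the *SAN1* strain, the 5 closest were *OST1* (0.99) and *OSH6*, *SEN1*, YNR071C and *SED4* (0.98 each), 0 of which were among the 5 over 20 libraries. *UBC4* (-0.98), YMR084W (-0.98) and *DAP1* (-0.97) were then the most negative. Over 20 and 16 libraries *SAN1* had coefficients of 0.84 and 0.56, *YPS7* of 0.67 and 0.86, *YPS6* of 0.50 and 0.51, *YPS1* of 0.17 and -0.09 and *YPS3* of -0.14 and -0.82. The libraries of a strain share their plasmid and cluster together, so these coefficients mostly restate the order of the strain means and carry no test.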

How the data were processed

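Per the labels and the study's methods, RNA from whole colonies was made into stranded TruSeq libraries, and the authors aligned paired 51-base reads to the R64 genome with Bowtie2 (2.1.0) and counted them per feature and strand with featureCounts (1.4.0), without a filter on mapping quality. The deposited table holds raw counts for 12131 features. Gene symbols were matched by locus tag for 5900 of 6575 ORFs, and sequences were read from RefSeq R64, whose coordinates equalled those of the 6 members.

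The 5772 ORFs whose median over libraries reached 1 CPM were scaled by TMM and fitted in 1 edgeR (4.0.16, limma 3.58.1, R 4.3.3) quasi-likelihood model of 20 libraries with a mean per strain. Pairs of strains, and each strain against the other 4, were tested two-sided with Benjamini-Hochberg adjustment over all tested ORFs, called below 0.01. Log2 values are differences fitted by this model, and errors are SE or SD as stated. The scripts were tested on simulated counts. Likeness is the Pearson coefficient of log2 CPM with a prior count of 2. Members, lists and comparisons were chosen with earlier results of these data known. Genes were named if they were members, nearest tested ORFs of plasmid genes, the highest and lowest called in a list between the *TOS8* and another strain, the 5 most and 3 least like *MKC7*, or features within 2 kb. Other list genes (*YPS5*, *PEP4*, *KEX2*, *PRC1*, *PRB1*, *GAS1*, *MSB2* and the mating markers) were named after their values were seen. Within a strain, counts of any 2 libraries differed by more than sampling noise (chi-square per degree of freedom of at least 5.23). Alternatives were a likelihood ratio test, DESeq2 (1.42.0), other scalings and filters, a threshold of 0.05, an added fold change of 1.5, fits of the compared libraries alone, a replicate block and leaving out each library.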

Additional observations from a re-analysis of the deposited data

Results flagged for a closer look

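Within each strain, the highest or lowest of the 4 libraries was compared with its neighbours for the 6 members and 5 other features of the locus, 55 groups in all, with Dixon's ratio at its 95% critical value. Chance alone sets apart about 1 in 20 groups, and 2 were set apart. *YPS7* had 205 CPM in *SFL1* replicate 4, below the other 3 *SFL1* libraries (216 to 217 CPM). The antisense feature 4F-350 had 1.43 CPM in *HEK2* replicate 1, above the other 3 *HEK2* libraries (0.757 to 0.838 CPM).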

How the results depend on the processing

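The differences of *MKC7* and *SAN1* between strains moved by less than the spread between replicates under every alternative run: without 1 library, *MKC7* stayed between 1.71 and 1.86 above the *ROF1* strain in the *SAN1* strain, and between -1.70 and -1.43 against the *SFL1* strain in the *TOS8* strain. The 11 of 40 calls among *YPS1*, *YPS3*, *YPS6* and *YPS7* became 1 when a fold change above 1.5 was also asked for, and the 1 called neighbour, *VPS45*, became 0. Leaving out 1 library gave between 8 and 12 calls. The likelihood ratio test added *YPS3* between the *SAN1* strain and the *HEK2* and *ROF1* strains and *YPS6* between the *TOS8* and *HEK2* strains and lost *YPS7* between the *TOS8* and *HEK2* strains (adjusted p = 0.0103). DESeq2 added *YPS3* between the *SAN1* and *ROF1* strains (0.00616), a threshold of 0.05 added 5 calls, and a fit of the compared libraries alone lost *YPS7* between the *SAN1* and *TOS8* strains (0.0269). Differences that passed in no setting and lay near 0 changed sign. *YPS7* between the *SAN1* and *SFL1* strains (0.0036) was -0.0012 with scaling over all features and -0.0041 in the fit of the compared libraries. Without 1 library its lowest and highest values were -0.026 and 0.056, those of *YPS7* were -0.015 and 0.066 between *SAN1* and *HEK2* and -0.0030 and 0.036 between *SFL1* and *HEK2*. *YPS1* reached -0.0057 and 0.061 between *SAN1* and *HEK2*. *YPS6* reached -0.11 and 0.085 between *SAN1* and *HEK2*, -0.012 and 0.10 between *SAN1* and *ROF1*, and -0.036 and 0.15 between *HEK2* and *ROF1*. The uncalled neighbours reached -0.046 and 0.13 (*RIB1*), -0.0065 and 0.057 (*SHE1*), and -0.081 and 0.00069 (*FMO1*). The likeness of *YPS1* to *MKC7* was -0.093 over 16 libraries. In no case was the cause tested. Calls over the 6 lists were recomputed with the likelihood ratio test, the filter of 10 counts in every library and the replicate block only, and stayed within 1.5 times under these 3.

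Replicate numbers are shared by the strains. Libraries of the same number deviated together only weakly (mean correlation 0.114, strain pair means between -0.0879 and 0.291, all 4 correlations above 0.1 in 1 of the 10 strain pairs, and in 17 of 40 comparisons of a library with the 4 of another strain the best match had its own number), so the numbers were not taken as pairs. With the number as a replicate block, *YPS6* between the *TOS8* and *HEK2* strains passed (-0.28, adjusted p = 0.00977), and no other call of the 4 yapsin genes changed. The antisense features rest on few counts outside the *SAN1* strain, down to 2 per library for 4F-354, 3 for 4F-352 and 5 for 4F-350.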
